A study of Bos taurus with 2 samples.

Results

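The tubulin and kinesin genes are 76 genes of the bovine array whose names start with TUBA, TUBB, TUBG, TUBD, TUBE, TTLL, KIF followed by a digit, or KLC, or are TBCA to TBCE. A rule on names picked them, and it was set with earlier results of these data known. They have 184 probes among 51282 and 76 of 31910 gene names. Alpha and beta tubulins pair into the subunit of the microtubule, the hollow filament that forms the axoneme of the sperm tail and the manchette that shapes the spermatid head. Gamma-tubulin complexes start new microtubules, tubulin cofactors fold the subunits, TTLL enzymes add amino acids to tubulin, and kinesins are motors that carry cargo along microtubules or take their ends apart. Mature spermatozoa transcribe little, so the RNA they hold is mostly a remnant of spermatid expression.

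Total RNA came from spermatozoa of HF crossbred breeding bulls, all male, grouped by fertility as high or low, and the labels name no treatment. Each group was hybridised to 1 array in 1 colour, Cy3. How many bulls, and of what ages, stand behind an array is not in the labels, which write bulls as a plural, and how fertility was scored is not given in the sources used here. The comparison asks which sperm transcripts differ between bulls of high and of low fertility. With 1 array per group there is no replicate and no p-value. Every difference is that of these 2 arrays, high-fertile minus low-fertile on the log2 scale.

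A probe counts as measured where all its spots were flagged well above background on both arrays, and 14154 probes (27.6%) were. The lowest such signal was 22.6 (high-fertile) and 30.3 (low-fertile), and the scaling divided signals by 148.6 and 186.3, so equal scaled levels have a signal 1.25-fold higher on the low-fertile array. Of 17 markers of spermatozoa and spermatids, 8 were measured, with PRM1 at -1.10, TNP2 at 1.22 and ODF1 at 0.24. Their median was 0.11, with 4 above and 4 below 0. Their summed signals were 826 and 981 on the high- and low-fertile arrays, below those of the leukocyte markers that follow. The sperm tail genes AKAP4 and SMCP and the acrosomal ACRV1 were among the 9 not well above background on either array, as were PRM2, LDHC and HSPA2. Of 10 leukocyte markers 8 were measured, with a median of -0.12 and summed signals of 1792 and 2349 on the high- and low-fertile arrays, while CD3E and CORO1A were not above background. Of these 8, 3 were above and 5 below 0: PTPRC, the pan-leukocyte surface phosphatase, gave 539 and 960 (-0.51), and the integrin ITGB2 gave 76.5 and 62.8 (0.61). Of 6 epithelial markers 3 were measured (median 0.34, summed signals 408 and 416), without EPCAM and CDH1. All 5 testis somatic markers on the array were measured (median -0.07, summed signals 588 and 781). Of 6 markers of epididymis and accessory glands 2 were measured, BSP1 at -0.55 and DEFB119 at -0.28. Another 2, CLU and SPADH1, were well above background on the high-fertile array only. Of 3 erythroid markers 1, HBA, was measured, with 121 and 135 (0.17). The part of such cells in the values that follow was not tested, and fewer cells of a type cannot be told apart from less RNA per cell.

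The probes are 60-base oligonucleotides, and tubulin paralogs are so alike that probes of different genes share long runs. A run of 16 or more bases in common with a probe of another gene name was present in 26 of the 184 probes, against 12.5% of all probes. Such probes were 11 of the 18 for beta tubulins and 7 of the 21 for alpha tubulins, but 3 of the 86 for kinesins. An accession of another gene was listed for 7 probes, among them a TUBA3E probe that also lists TUBA8. From the pairs with runs of at least 23 bases, 2 are printed to show what separates these genes on the array. Capitals mark the shared run, positions are those the array design gives on build HGSC Btau_3.1, and every printed probe has at least 1 forward reading frame without a stop codon. TUBB (chr23:28221692-28221751) and TUBB4B (chrUn.004.135:278119-278178), both on the minus strand, agree at 43 of 48 aligned bases.
TUBB: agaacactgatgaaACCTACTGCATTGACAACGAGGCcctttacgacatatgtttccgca
TUBB4B: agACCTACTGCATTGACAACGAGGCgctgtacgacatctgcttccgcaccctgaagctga
TUBB2B (chr23:51487192-51487251, plus strand) shares another run of 23 bases with the same TUBB4B probe, in capitals here only, with 50 of 54 aligned bases identical.
TUBB2B: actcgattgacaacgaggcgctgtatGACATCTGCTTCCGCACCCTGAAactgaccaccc

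The TUBB2B and TUBB4B probes both gave 0.12. The TUBB probe gave 0.61 beside 0.12 for its TUBB4B partner. A second TUBB and TUBB4B pair, also with a shared run of 23 bases, differed in sign, with -0.31 and 0.24. How much of a signal came from the paralog was not tested, and single tubulin genes are therefore uncertain.

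Of the 76 genes 29 were measured, or 38.2%, against 36.4% of all gene names. A gene counted with any 1 measured probe, and members had more probes per gene: 184 for 76 genes, beside 51282 for 31910 gene names. By probes the shares were 26.6% of members and 27.6% of all. None was at least 2-fold higher on the high-fertile array, where 1.88% of all 11619 measured genes were, and none was at least 2-fold lower, where 2.44% were. At a looser limit of 1.5-fold 0 members were higher, against 7.56% of all genes, and 1, TTLL11, was lower, against 8.77%. The differences ran from -0.84 for TTLL11 to 0.50 for TUBA1C, with a median of 0.12. Over all measured genes the median was -0.0003 and the 5th and 95th percentiles were -0.76 and 0.70. Differences above 0 were found in 17 of the 29 genes, against 49.9% of all genes. With scaling on spike-in probes, which moved the median of all genes to -0.60, 0 of the 29 were above 0. The sign of all 17 positive differences thus rests on the scaling, also for the largest, TUBA1C, which went from 0.50 to -0.10. Spike-in scaling shifts all genes of an array alike, so it could not change the gap of 0.12 between the members' median and that of all genes. Under choices that could change it, the gap ran from -0.02 (no filter on dim probes) to 0.13 (without probes that share 16 bases with another gene's). It was 0.03 with normexp background correction.

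**Figure D1:**
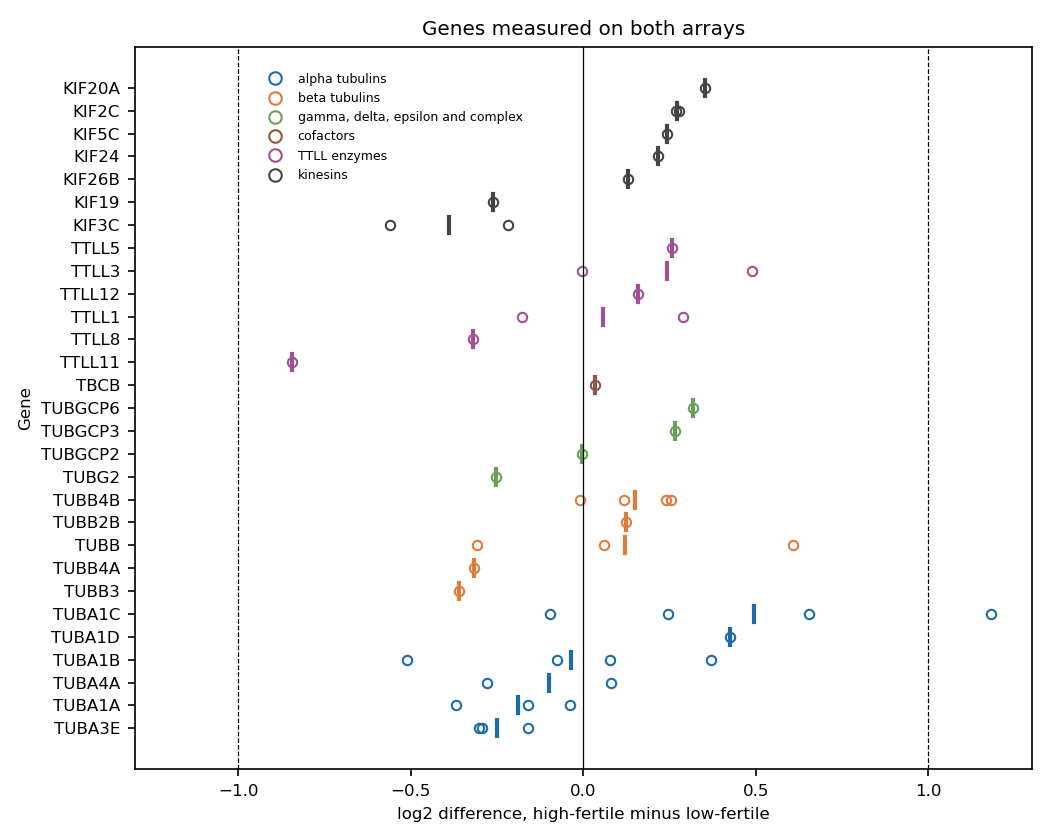
Log2 difference (high-fertile minus low-fertile, 1 array each) of the 29 genes measured on both arrays. Open circles are probes, vertical bars are gene means, colours are classes and dashed lines mark a 2-fold difference; every gene mean lies between -0.84 and 0.50, and 1 probe, of TUBA1C, lies past 2-fold.

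The share of measured probes differed between the classes. Alpha tubulins had 17 of 21 probes measured (81.0%) and beta tubulins 10 of 18 (55.6%). A run of 16 bases shared with another gene's probe was present in 8 of these 10 beta-tubulin probes and 6 of these 17 alpha-tubulin probes. Among all probes of the classes it was present in 11 of 18 and 7 of 21. TTLL enzymes had 8 of 23 (34.8%), gamma, delta and epsilon tubulins with the gamma-tubulin complex proteins 4 of 19 (21.1%), and cofactors 1 of 10. Kinesins had 9 of 86 (10.5%) and kinesin light chains 0 of 7. All members together had 49 of 184 (26.6%), beside 27.6% of all probes. The probes' median GC content was 45% for alpha tubulins, 48.3% for beta tubulins, 44.2% for kinesins and 55% for the light chains, and among all probes it was 45% in measured and 43.3% in other probes. The part of GC content and of shared runs in detection was not tested.

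**Figure D2:**
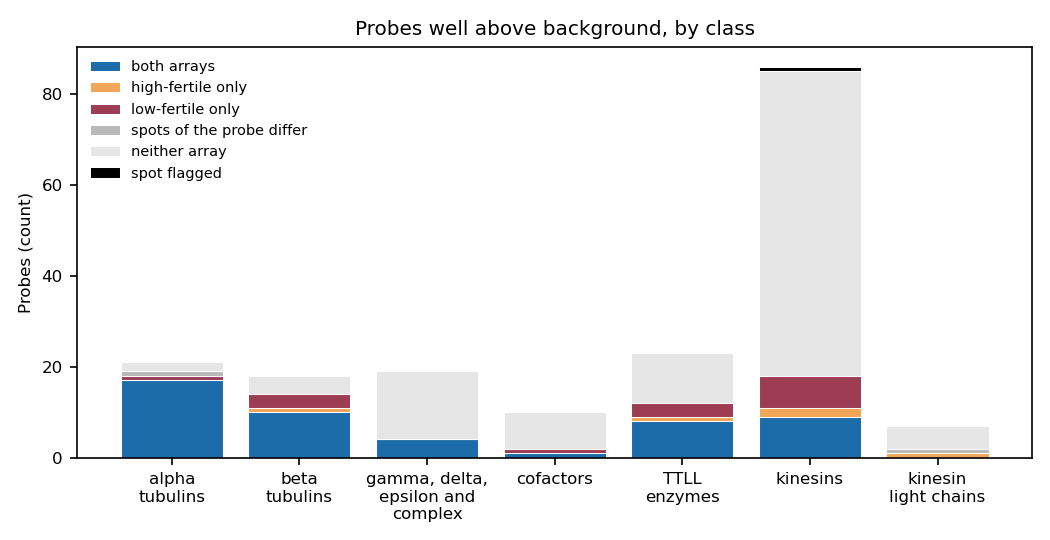
Number of probes (y axis) in each of the 7 classes (x axis), divided by whether they were well above background on both arrays, on the high-fertile or the low-fertile array only, or on neither, with probes whose spots differed or were flagged apart. Alpha tubulins have 17 of 21 probes on both arrays and kinesins 9 of 86.

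Of the 8 alpha tubulins 6 were measured, 2 above and 4 below 0. TUBA1C, a widely expressed alpha tubulin, had signals of 132, 70.9, 235 and 867 on the high-fertile array for its 4 probes from the 5′ to the 3′ end of its transcript record, and 105, 75.1, 315 and 480 on the low-fertile array. The listed genome position of the second probe, 10 bases long, lies past that of the last, so the order holds for the transcript record only. Before scaling, the first and the last probe were brighter on the high-fertile array and the middle ones were not. Their differences were 0.65, 0.24, -0.10 and 1.18, and the gene mean was 0.50 (SD 0.55 over 4 probes), 1.41-fold higher. The second probe also lists TUBA1B and shares a run with a TUBA1B probe, and the third also lists TUBA1A and TUBA1B. The first and the last probe list no other gene. The last was the only member probe at least 2-fold higher, 1 of 49, against 2.14% of all measured probes, and none was at least 2-fold lower, against 2.8%. It holds the letters AATAAA from its base 44, the commonest polyadenylation signal, which 27 of 183 member probes and 8.35% of all probes hold on the probe strand. Of these 27 probes 10 were measured (37.0%), and of the other 156, 39 were (25%). Over all probes the values were 30.7% with the letters and 27.3% without. On the other strand 5 member probes held the letters, and 4 of these were measured (80%), against 25.3% of the rest. Over all probes the other-strand values were 24.3% with the letters and 27.7% without. The letters are a description of the probe and do not show where a transcript ended.

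TUBA1D, represented by 1 probe, gave 195 and 183, a difference of 0.42. TUBA1B, a broadly expressed alpha tubulin, had 4 measured probes at 145 and 172, 58.8 and 57.1, 222 and 294, and 79.2 and 141 on the high- and low-fertile arrays. Their differences went from -0.51 to 0.37, with a mean of -0.04 (SD 0.37). The remaining TUBA1B probe was well above background on the low-fertile array only, with 24.6 and 62.1, after scaling 2.01-fold lower on the high-fertile array. The probes of this gene thus showed no common direction.

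TUBA1A, the main alpha tubulin of neurons, had 3 probes at 172 and 222, 155 and 252, and 48.2 and 67.5, all below 0 after scaling (mean -0.19, SD 0.17). The second carries another accession and lies within the span of the TUBA1B probes on chromosome 5, and the others lie outside it. TUBA3E, of the testis-type alpha tubulins, gave 93.9 and 145, 103 and 145, and 41.5 and 63.7. All its 3 probes were lower on the high-fertile array, with a mean of -0.25 (SD 0.08), 1.19-fold. TUBA4A, which is encoded without the terminal tyrosine of other alpha tubulins, gave 54.8 and 65, and 84.5 and 128 (mean -0.10, SD 0.25 over 2 probes). TUBA8 was not above background, and for 1 of the 2 TUBAL3 probes the spots disagreed on whether it was.

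Of the 7 beta tubulins 5 were measured, 3 above and 2 below 0, none by more than 0.36. TUBB4B, a broadly expressed beta tubulin found in cilia and testis, had 4 probes, which in 5′ to 3′ order gave 95.8, 165, 409 and 74.4 on the high-fertile array. On the low-fertile array they gave 111, 175, 516 and 78.3. Their differences were 0.12, 0.24, -0.01 and 0.25, with a gene mean of 0.15 (SD 0.12 over 4 probes), and the last 2 probes overlap by 26 bases. TUBB, a broadly expressed beta tubulin, gave 48.8 and 40.2, 81.3 and 126, and 26.5 and 31.9, with differences of 0.61, -0.31 and 0.06 and a mean of 0.12 (SD 0.46).

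The other beta tubulins had fewer measured probes. TUBB3, a beta tubulin of neurons, gave 33.5 and 53.9 (-0.36, 1 probe), and TUBB4A, another, gave 29.9 and 46.8 (-0.32, 1 of 3 probes). TUBB2B had 1 measured probe, at 84.5 and 97.3 (0.12). Its other 3 probes were each called differently. Of them 1 was on the low-fertile array only (22.0 and 46.3, at least 1.63-fold lower on the high-fertile array). Another was on the high-fertile array only (29.6 and 20.8, at least 1.23-fold higher), and 1 on neither. The low-only probe and that on neither start at chr23 positions 51451785 and 51449776. The measured and the high-only probe lie apart from them, at 51487192 and 51487983. Whether both stretches are 1 gene was not tested. TUBB1, the beta tubulin of platelets, and TUBB6 were on the low-fertile array only, at least 1.63- and 1.34-fold lower on the other.

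**Figure D3:**
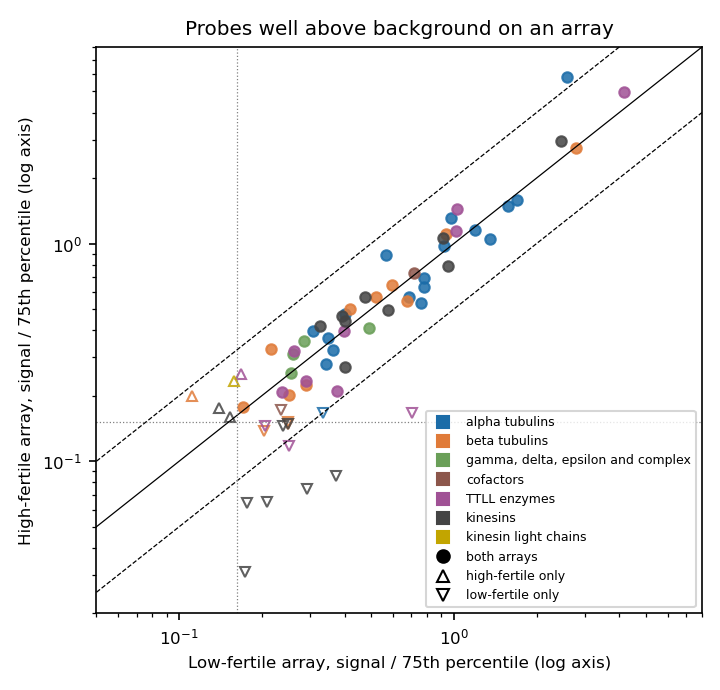
Scaled signal (signal divided by the array's 75th percentile, log axes) on the high-fertile array against the low-fertile array for member probes well above background on both arrays (filled) or on 1 (open triangles), coloured by class. The solid line marks equality, dashed lines 2-fold and dotted lines the lowest signal well above background on each array; 1 of the 49 filled points, of TUBA1C, lies past 2-fold.

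Of the genes that start microtubules, TUBG1, the main gamma-tubulin, was not above background with any of its 3 probes, whose signals lay between 6.15 and 15.9. TUBG2, its paralog, gave 61.0 and 91.1 (-0.25). TUBGCP2 and TUBGCP3, which with gamma-tubulin form the small complex, gave 37.8 and 47.5 (-0.003) and 46.3 and 48.3 (0.27). TUBGCP6, which belongs to the ring complex, gave 52.9 and 53.3 (0.32). With a further probe that carries an accession in place of the gene's name it stood at 0.19. Its second probe shares 50 bases with the first and was not above background, at 12.3 and 18.1. TUBD1 and TUBE1, the delta- and epsilon-tubulins of centrioles, were above background on neither array, nor were TUBGCP4 and TUBGCP5 of the ring complex. Each measured gene here rested on 1 probe.

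Among the cofactors, TBCB, which binds alpha-tubulin, was measured at 109 and 134, a difference of 0.03. TBCC, which acts in the last step of folding, was on the low-fertile array only (25.5 and 43.6, 1.36-fold). TBCA, TBCD and TBCE, which hold or assemble the subunits, were above background on neither array.

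The TTLL enzymes held the lowest member and the largest bound. TTLL11, a polyglutamylase that lengthens glutamate chains on tubulin, gave 31.2 and 70.2. The lowest well-above-background signal on the high-fertile array was 22.6. The difference was -0.84, or 1.79-fold lower on the high-fertile array. It rested on 1 probe, and the second TTLL11 probe, at 12.5 and 12.7, was above background on neither array. With normexp background correction, which adds 50 to each corrected signal, the difference was -0.17. With the second probe included (no filter on dim probes) it was -0.26. TTLL8 and TTLL3, which add glycine to axonemal tubulin, gave 34.6 and 54.1 (-0.32, 1 probe) and a mean of 0.24 (SD 0.35 over 2 probes). The TTLL3 probes, which belong to different transcript records, gave 59.0 and 74.1, and 215 and 192. The 2 spots of the first, at 49.6 and 75 and at 70.2 and 73.3, differed in direction after scaling, with -0.27 and 0.26.

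TTLL5, a glutamylase needed in mice for normal sperm, had 1 measured probe, with 738 and 776 (0.26). It belongs to a different transcript record from the other TTLL5 probes. Of those, 1 was on the low-fertile array only (17.4 and 46.8, at least 1.65-fold), and the remaining 2 were on neither. TTLL1, the catalytic part of a polyglutamylase complex of cilia and flagella, gave 31 and 44.0, and 47.7 and 48.9 (mean 0.06, SD 0.33). TTLL12, a relative whose ligase activity is less clear, gave 169 and 190 (0.16). TTLL9, a polyglutamylase of the sperm flagellum, was above background with none of its 3 probes, which lie together at its 3′ end. TTLL2 was on the low-fertile array only (21.5 and 38.2, at least 1.35-fold). TTLL7, a glutamylase best known from neurons, was on the high-fertile array only (37.5 and 31.3, 1.5-fold), and TTLL4 was on neither.

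A gene well above background on 1 array only is given no measured fold, only a bound. It is the probe's scaled signal over its signal on the dim array, or over the lowest well-above-background signal there if that is higher. Such genes numbered 10 on the low-fertile array only, against 3.74% of all gene names, and 4 on the high-fertile array only, against 3.54%. By probes they were 15, against 3.48%, and 5, against 3.61%. The gene counts leave out genes with another probe measured on both arrays. Among those left out were a KIF5C probe, at least 2.45-fold lower on the high-fertile array, and a TUBA1B probe, 2.01-fold lower. Of the 10 genes 1 had a bound of at least 2-fold, against 17.3% of such genes on the array, and of the 4 none had, against 6.9%. The 1 was TTLL6, a glutamylase of cilia and flagella, 4.25-fold lower on the high-fertile array, with signals of 24.7 and 131.6. The 24.7 exceeded the lowest well-above-background value without passing that test itself. The 4.25-fold is therefore the observed ratio and not a lower limit. The same held for TTLL7, TBCC and the TUBA1B probe on the low-fertile array only. With normexp background correction, which adds 50 to each corrected signal, the TTLL6 bound was under 2-fold. The other 2 TTLL6 probes were above background on neither array (6.51 and 8.83, and 6.05 and 8.13), and 2 of the 8 spots around the bright spot differed at least 2-fold the same way. The bright probe is printed because the bound rests on it, and lies at chr19:38963096-38963155 on the plus strand.
TTLL6: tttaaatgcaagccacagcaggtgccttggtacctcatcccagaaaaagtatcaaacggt

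Of the 32 kinesins 7 were measured, 5 above and 2 below 0, with a median of 0.22. KIF2C, the kinesin-13 that takes microtubule ends apart at chromosomes, gave 442 and 458, and 84.8 and 88.4. Its 2 probes agreed to within 0.01, at a mean of 0.27 (SD 0.006). KIF20A, a motor of cytokinesis, gave 61.8 and 60.8 (0.35), the highest difference among kinesins. KIF24, which keeps centrioles from forming cilia, gave 158 and 170 (0.22), and KIF26B gave 65.4 and 74.9 (0.13); these last 2 were named after their values were seen.

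KIF3C, a kinesin-2 subunit, gave 73.8 and 108, and 40.4 and 74.7, both lower on the high-fertile array after scaling (mean -0.39, SD 0.24). KIF19, which shortens ciliary microtubules, gave 118 and 177 (-0.26, 1 probe). The kinesin-2 motors of flagellum assembly were mostly near background. KIF3A was on the low-fertile array only with 1 of its 3 probes (21.9 and 46.4, at least 1.64-fold), and none of the 6 KIF3B and 4 KIF17 probes was above background. KIF9, a motor of the central axoneme, and KIF2B were on neither array, and KIF2A was on the high-fertile array only (26.1 and 26.0, at least 1.08-fold).

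KIF5C, a heavy chain of kinesin-1, had probes that disagreed. The probe at its 3′ end, which starts at base 3628 of its transcript record, gave 69.1 and 73.2, a difference of 0.24 with 2 spots at 0.17 and 0.32. The probes that start at bases 1339 and 1385 gave 11.1 and 54.3, and 12.7 and 69.5, well above background on the low-fertile array only. They were at least 1.92- and 2.45-fold lower on the high-fertile array, opposite in sign to the first. With no filter on dim probes the mean over all 3 was -1.28. They are printed because they overlap by the 14 bases in capitals, so they report on one stretch of the transcript and are no independent pair. The first covers chr2:49492307-49502527, which at 10221 bases is longer than the probe and so spans a gap, and the second lies at chr2:49492261-49492320, both on the minus strand.
KIF5C, first: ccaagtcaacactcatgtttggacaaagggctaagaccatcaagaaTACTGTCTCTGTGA
KIF5C, second: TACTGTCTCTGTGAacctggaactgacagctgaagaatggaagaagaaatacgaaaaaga

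The other heavy chains were near background. None of the 4 KIF5B probes was above background, and 1 of 3 KIF5A probes was on the high-fertile array only (23.7 and 28.7), with a bound under 1 and so no fold. Of the light chains that tie kinesin-1 to cargo, KLC2 was on the high-fertile array only (34.8 and 29.6, at least 1.44-fold), the 2 spots of KLC4 disagreed, and KLC1 and KLC3, the light chain of the sperm tail, were on neither array. KIF20B, a mitotic kinesin, had 1 spot marked as an outlier, in a patch where all 8 surrounding spots differed at least 2-fold the same way, which at least 4 of 8 did for 0.85% of all spots, and its other 2 probes were on neither array. The mitotic kinesins KIF18B, KIF23, KIF15 and KIF4A were each on the low-fertile array only with 1 probe, with bounds of 1.57-, 1.38-, 1.16- and 1.14-fold. Leaving out the marked KIF20B spot, 18 of the 32 kinesins had no probe above background on either array.

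**Figure D4:**
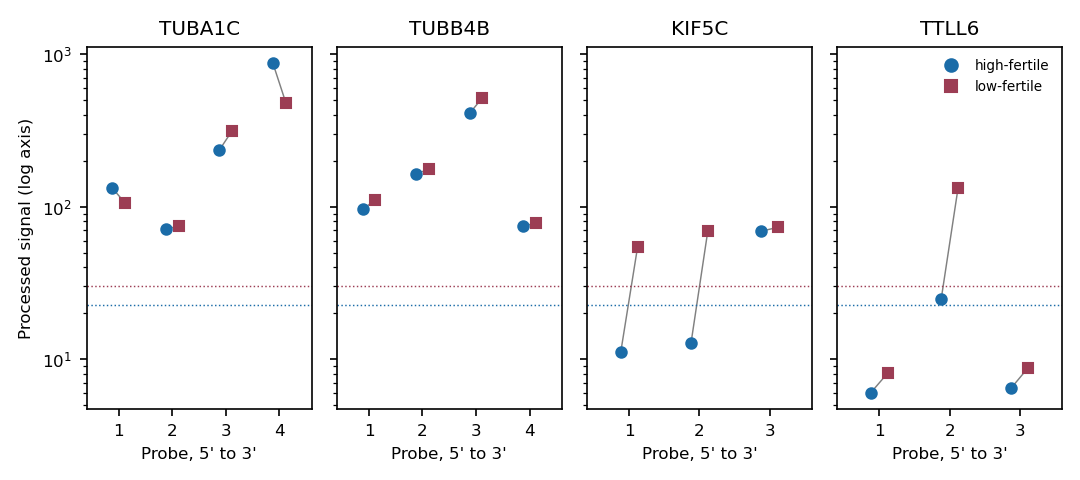
Processed signal (log axis) of every probe of TUBA1C, TUBB4B, KIF5C and TTLL6, in the order of its start on its transcript record, on the high-fertile (circles) and low-fertile (squares) array; the 3′-most TTLL6 probe starts on a different record. Dotted lines are the lowest signals well above background, 22.6 and 30.3; 2 of 3 KIF5C probes lie above the low-fertile line only, the middle TTLL6 probe has 24.7 and 131.6, and the 4 TUBB4B probes lie above both lines.

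Probes of one member gene differed in difference by an SD of 0.33 (11 genes with at least 2 measured probes), and over all genes by 0.42 (1851 genes). Pairs of spots of one probe had an SD of 0.16 over 7 member probes and 0.28 over 3038 probes. The differences of 23 of the 29 genes were smaller than 0.33. Where a gene had probes at 2 or more starts on one transcript record, the 3′-most was measured in 15 of 53 member genes (28.3%) and the 5′-most in 10 (18.9%). Over all genes these shares were 30.1% and 22.5% of 10108. Probes that span more than 62 bases of the genome, and so cross a gap, were measured in 6 of 45 cases (13.3%), against 43 of 139 others (30.9%). Over all probes with a listed position these shares were 18.3% of 6476 and 29.1% of 36274.

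The proteins that work with tubulin and kinesins were set beside them through a list of 70 genes, of which 66 had a probe and 27 were measured. None was at least 2-fold higher or lower, where 1.88% and 2.44% of all genes were, 10 were above and 17 below 0, and the median was -0.05, beside 0.12 for tubulins and kinesins and -0.0003 for all genes. Highest was MZT2B, a small protein of the gamma-tubulin complex, with 80.4 and 59.6 (0.76), then ARL2, the GTPase that works with the cofactors, with 119 and 103 (0.54), and SIRT2, a tubulin deacetylase, at 0.44 (SD 0.10 over 2 probes). Lowest was CLIP1, which binds growing microtubule ends, with 54.8 and 126 (-0.87). DYNC1LI2, a light intermediate chain of dynein, stood at -0.72 (SD 0.04 over 2 probes), and MAP1B, a stabiliser known from neurons, gave 55.7 and 102 (-0.54). On the high-fertile array only were 6 partners, MAP1S, MAP4, CLASP1, CKAP5, STMN2 and STMN3, with bounds from 1.04- to 1.42-fold, none of 2-fold, against 6.9% of such genes on the array. On the low-fertile array only were 2, KIFAP3, which joins kinesin-2 to its cargo, and DCTN1, the large dynactin subunit. They were at least 2.60- and 2.32-fold lower on the high-fertile array, and 17.3% of such genes had a bound of 2-fold. These 8 were named after their values were seen.

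**Figure D5:**
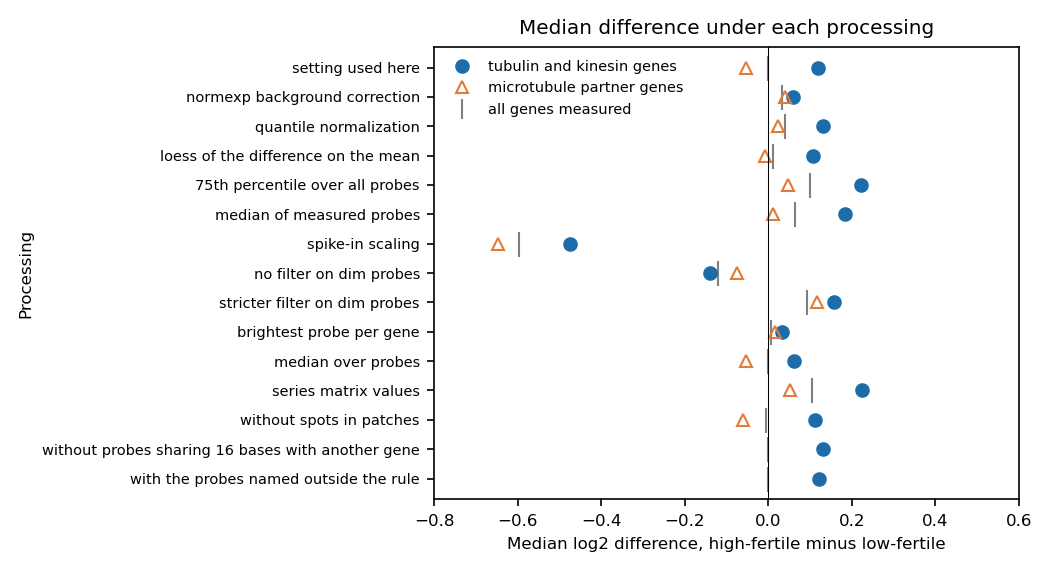
Median log2 difference (x axis, high-fertile minus low-fertile) of the tubulin and kinesin genes (filled circles), the microtubule partner genes (triangles) and all measured genes (grey ticks) under each processing (y axis); the 2 settings added after seeing the data have no triangle. The members' median lies at 0.12 in the setting used here and at -0.48 with spike-in scaling, where that of all genes is -0.60.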

How the data were processed

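Per the labels' protocols, cRNA made from total RNA with an oligo-dT primer carried the dye Cy3, and each fertility group had 1 array. The deposited scanner tables hold spot intensities on a linear scale, made with Agilent Feature Extraction 11.5.1.1 per the file headers, which give background subtraction within each array. The deposited series matrix holds log2 values. They equalled the log2 processed signals plus a constant per array (-5.12 for high-fertile, -5.55 for low-fertile, within 0.01 for 98.6% of probes on each), so their scale, direction and lack of gene centring are known from the values; their column medians were -1.43 and -1.37. Processed signals were taken as log2 with no pseudocount. Control spots and 9 outlier-flagged spots (2 probes) were left out, spots of a probe were averaged, and each array's 75th percentile over probes well above background on both arrays was subtracted. A gene's difference is the mean over its measured probes. It was counted at 2-fold or more, with no test. No spot was saturated, and the number of arrays limits the precision.

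Gene names over the whole array came through accessions in the RefSeq table of ARS-UCD2.0 (28112 probes) or symbols there (6484, and 153 older symbols), and 16533 probes kept the file's name. The text names, per class, up to 3 genes with the largest difference in each direction, genes at least 2-fold apart or with a bound of 2-fold, genes with at least 3 measured probes, and 26 genes named always; of the partners, 3 per direction. Other members, named to account for each class, were chosen after their values were seen. The members, the lists and these rules were chosen with earlier results of these data known. Other choices tried were normexp (limma 3.58.1, R 4.3.3, offset 50), quantile and loess normalization, other scalings and other filters on dim probes. Also tried were other rules for probes of a gene, the matrix values, a 1.5-fold threshold and leaving out patches. Chosen after seeing the data were a run without probes that share 16 bases with another gene's, and a run with 2 probes the name rule misses. The scaling and the averaging to gene differences were tested on simulated data that kept the background flags of these arrays. That test did not cover the background filter, the bounds or signal from paralogs.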

Additional observations from a re-analysis of the deposited data

Results flagged for a closer look

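A KIF20B probe had a signal of 4607.6 on the low-fertile array and 4.85 on the high-fertile array, but the scanner software marked its spot as an outlier and it was left out. All 8 spots around it differed at least 2-fold the same way, which at least 4 of 8 did for 0.85% of spots. The other 2 KIF20B probes were above background on neither array.

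A TUBGCP6 probe and a KIF1B probe carry an accession in place of the gene's name, so the name rule did not take them. Each was well above background on both arrays. The TUBGCP6 probe gave 32.3 (high-fertile) and 38.9 (low-fertile), a log2 difference of 0.06, and the KIF1B probe, for a motor of axonal transport, gave 109 and 125 (0.13).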

How the results depend on the processing

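With 1 array per group no array could be left out, and no test was made. No paired analysis was possible because each group has 1 array. Quantile, loess, median and 75th-percentile scaling, the stricter filter, the median over probes, the matrix values, and leaving out patches left all 2-fold counts of members and partners measured on both arrays at 0, and both added choices, run for members only, left theirs at 0. The members' median was between -0.14 and 0.22 under all alternatives but spike-in scaling, and -0.14 came with no filter on dim probes, where that of all genes was -0.12. Scaling on the 75th percentile of all probes and the matrix values moved the median of all genes to 0.10, and 2-fold calls over all genes from 218 higher and 284 lower to 295 and 203, and 297 and 201.

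Spike-in scaling gave a median of -0.48, or -0.65 for the partners. It left 1 member lower (TTLL11, -1.44), 4 partners lower and 8 one-array genes with a bound of 2-fold, and 33 higher and 1776 lower over all genes. No filter gave 1 member higher (TTLL4) and 3 lower (KIF23, KIF2B and KIF5C, which went from 0.24 to -1.28), and 1 partner higher and 3 lower. The brightest probe gave 1 higher, TUBA1C at 1.18. A threshold of 1.5-fold gave 0 members higher, against 7.56% of all genes, and 1 lower (TTLL11), against 8.77%, 1 partner higher and 2 lower, and 5 one-array bounds. Normexp gave 0 such bounds of 2-fold, and 72 higher and 48 lower over all genes. It was run with an offset of 50 added to each corrected signal, which by construction brings the ratios of dim probes nearer to equality. The share of the offset in these changes, and the cause of the others, was not tested.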
